A study of Mus musculus with 6 samples.

Results

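Regulatory and CD4 lineage genes were followed in sorted mouse CD8 T cells with and without the activating receptor NKG2D. The set holds 8 of the 23284 genes counted: the transcription factor genes Foxp3, Ikzf2 and Ikzf4, the surface receptor genes Lrrc32, Nrp1 and Gpr83, and the CD4 lineage genes Cd4 and Zbtb7b. Foxp3 and Lrrc32 were picked because their values were lower in NKG2D+ cells, so their difference is described here without a p-value, and the other 6 were added as genes known from regulatory or CD4 T cells. Each of the 8 passed the filter on low counts. The samples were 3 libraries of CD3+CD8+CD44+CXCR3+NKG2D+ cells and 3 of CD3+CD8+CD44+CXCR3+NKG2D- cells. All were sorted from lymph nodes of C3H/HeJ mice, an inbred strain in which alopecia areata, an autoimmune hair loss, is studied, and 3 separate mice were used. No source used here gives the age or disease state of the mice, or says which mouse gave which library.

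Regulatory T cells restrain immune responses and in mice are mostly CD4 T cells. Foxp3, a forkhead transcription factor, sets and maintains their program, and Helios (Ikzf2) and Eos (Ikzf4), zinc finger proteins of the Ikaros family, act beside it. GARP (Lrrc32) holds latent TGF-beta on the cell surface, neuropilin-1 (Nrp1) binds semaphorins and VEGF, and GPR83 (Gpr83) is a G-protein-coupled receptor enriched in regulatory T cells of mice. CD4 is the co-receptor for MHC class II, and ThPOK (Zbtb7b) directs thymocytes to the CD4 lineage and away from the CD8 lineage. Some CD8 T cells with Foxp3 or Helios have also been described in mice.

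As a set, these genes were not uniformly higher in NKG2D- cells. For Foxp3, Lrrc32 and Gpr83 all NKG2D+ libraries lay below all NKG2D- libraries, and for Zbtb7b all lay above. Ikzf2, Ikzf4, Nrp1 and Cd4 overlapped between the populations. Over all 12951 genes tested, the groups did not overlap for 14.1% with NKG2D+ below and for 15.1% with NKG2D+ above. Among the 6 genes that were not picked by value, 1 lay below and 1 above without overlap, which is near that background. By edgeR's quasi-likelihood test 0 of these 6 passed an adjusted p of 0.05, against a background of 2.02% of all genes tested (1.65% higher and 0.363% lower in NKG2D+ cells), and 2 of the 6, Gpr83 and Zbtb7b, had an unadjusted p under 0.05, as did 21.1% of all genes tested. DESeq2 called 1 of the 6, Zbtb7b, against 9.84% of all genes, and limma-voom 0, against 0.641%. A missed threshold does not show that the populations were alike, and the p-values measure only the spread between these libraries.

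Promoter sequences of 3 of the genes are shown because Foxp3 and Gpr83 had the closest patterns of any pair in the set, while Zbtb7b ran the other way. RefSeq windows (build GRCm38.p6, while the submitters' processing notes name mm9) were matched for 4 of the 8 genes, in 6 windows. The first window of each gene is shown, and the 250 bases before an annotated start are printed 5′ to 3′. The windows lie at chrX:7579426-7579675 on the plus strand for Foxp3, chr9:14859960-14860209 on the plus strand for Gpr83 and chr3:89393379-89393628 on the minus strand for Zbtb7b. Capitals mark a TATA box (TATAAA) or a RUNX core (TGTGGT), searched on both strands, in the windows printed here:
Foxp3: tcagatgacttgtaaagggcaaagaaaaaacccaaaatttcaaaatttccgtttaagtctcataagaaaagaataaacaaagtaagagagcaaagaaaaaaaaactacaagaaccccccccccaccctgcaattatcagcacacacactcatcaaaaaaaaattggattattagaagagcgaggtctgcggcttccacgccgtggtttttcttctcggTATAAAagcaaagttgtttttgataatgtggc
Gpr83: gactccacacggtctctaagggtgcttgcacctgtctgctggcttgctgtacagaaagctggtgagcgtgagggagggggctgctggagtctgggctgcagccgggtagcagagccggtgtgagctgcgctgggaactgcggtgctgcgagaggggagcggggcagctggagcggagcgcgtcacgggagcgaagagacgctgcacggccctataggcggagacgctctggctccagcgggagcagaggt
Zbtb7b: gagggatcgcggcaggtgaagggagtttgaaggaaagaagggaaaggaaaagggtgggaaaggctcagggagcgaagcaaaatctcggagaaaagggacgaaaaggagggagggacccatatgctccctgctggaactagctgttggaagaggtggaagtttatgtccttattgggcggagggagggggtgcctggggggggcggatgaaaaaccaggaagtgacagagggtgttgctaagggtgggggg
The Foxp3 window shown held 1 TATA box near its start site, a motif found in 12.4% of all 32851 windows of this length, and no RUNX core, which 14.0% held. The Gpr83 and Zbtb7b windows shown held neither, and another Zbtb7b window, not shown, held 1 RUNX core. Another Foxp3 window, also not shown, held no TATA box and no RUNX core, and G and C made up 46% of it. The NFAT core GGAAA, present in 55.6% of all windows, was found at 1 place in the Foxp3 window, at 4 in the Zbtb7b window and at 0 in the Gpr83 window. G and C made up 37.6% of the Foxp3 window, 66.8% of the Gpr83 window and 56.4% of the Zbtb7b window, against a median of 52.4%. These letters are a description of the sequence, and the read counts do not measure binding to it.

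The 6 libraries held 41168816 to 89184611 gene counts. Levels are given in CPM, the reads of a gene scaled to the total of its library after TMM normalization. The sorted identity was checked on 6 T-cell genes, which summed to 1951 to 2556 CPM in NKG2D+ and 2001 to 2261 CPM in NKG2D- libraries, with 3 of 6 log2 fold changes positive. The CD8 chain genes Cd8a and Cd8b1 summed to 1797 to 3006 CPM in NKG2D+ and 2044 to 2120 CPM in NKG2D- libraries, with 1 of the pair positive. In a bulk sample, fewer cells of a type and less RNA per cell cannot be told apart. NKG2D+ library 1 stood apart from the other NKG2D+ libraries: it was the highest of the 3 for 6 of the 8 genes, and NKG2D+ library 2 was the lowest for all 8. Summed CPM of 8 B-cell markers was 445, 183 and 220 in NKG2D+ libraries 1, 2 and 3, against 51.0, 163 and 118 in NKG2D- libraries 1, 2 and 3, with 8 of 8 log2 fold changes positive. For 12 dendritic and myeloid markers, 11 of them tested and 8 positive, the sum was 37.0, 18.6 and 27.6 CPM in NKG2D+ libraries, against 11.4, 13.7 and 12.4 CPM in NKG2D- libraries. For 7 markers of plasmacytoid dendritic cells, which in mice can express Nrp1 and Cd4, it was 202, 188 and 191 CPM in NKG2D+ libraries, against 165, 194 and 194 CPM in NKG2D- libraries, with 3 of 7 positive. Of these 7, Tcf4, Spib and Irf8 lay above in all NKG2D+ libraries, while Siglech, Ccr9, Pacsin1 and Bst2 overlapped, with negative log2 fold changes. The lowest was that of Siglech, at -1.21. At an unadjusted p under 0.05 by edgeR there were 3 higher and 1 lower, Siglech. Tcf4, Spib and Irf8, like the B-cell sum, were highest in NKG2D+ library 1 and lowest in NKG2D- library 1. For 4 markers of gamma-delta and innate-like T cells it was 18.2, 10.4 and 11.9 CPM in NKG2D+ libraries, against 1.91, 8.30 and 5.43 CPM in NKG2D- libraries, mostly Blk, which B cells also express, with 3 of 3 tested genes positive. Both NK-cell markers were positive, at a sum of 2.94 to 5.69 CPM in NKG2D+ libraries, against 1.46 to 2.82 CPM in NKG2D- libraries. The 10 endothelial and stromal markers summed to 55.7 to 60.6 CPM in NKG2D+ libraries, against 69.7 to 72.1 CPM in NKG2D- libraries, with 3 of 4 tested genes positive. By edgeR the collagen gene Col1a1 and the growth factor receptor gene Pdgfrb rose and Pecam1 fell. Pdgfrb stood at 2.25, 1.11 and 2.27 CPM in NKG2D+ libraries, against 0.252, 0.0845 and 0.0936 CPM in NKG2D- libraries. It passed the filter on low counts through its NKG2D+ values, so its rise is a description. Most of the sum was Pecam1, which T cells express too, Cdh5 reached at most 0.234 CPM, and Pdpn had no reads in 5 libraries. In the lists of B cells, NK cells, gamma-delta, plasmacytoid dendritic and myeloid cells 0 genes passed by edgeR, while at an unadjusted p under 0.05 there were 7 of 8 B-cell genes, all higher in NKG2D+ cells, and 6 higher and 1 lower of the 11 dendritic and myeloid genes. The part of other cells in the values below was not tested.

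In NKG2D+ libraries 1, 2 and 3 Foxp3 levels were 7.27, 2.45 and 4.94 CPM, against 20.8, 16.2 and 14.4 CPM in NKG2D- libraries 1, 2 and 3. Values of the other genes follow the same library numbers. The highest NKG2D+ library lay below the lowest NKG2D- library. The NKG2D+ mean was 0.285 times the NKG2D- mean, with a log2 fold change of -1.81 (SE 0.38), given as a description. Behind these values were 219 to 478 reads in NKG2D+ and 827 to 960 reads in NKG2D- libraries. Foxp3 shares 590 of its 4577 annotated exon bases with Ccdc22 and 266 with Ppp1r3f, both on the opposite strand in GENCODE M21. It also shares 853 bases with Flicr and 373 with Gm36995, noncoding genes that were not counted under those names. The library kit named in the labels, TruSeq RNA v2, does not mark strand, so strand cannot tell apart reads from the shared stretches. Reads in several genes, 0.715% to 0.836% of a library, were counted apart and left out here. Whether reads from these stretches were among them is not known, since no source used here names the counting settings. Ccdc22 stood at 23.1, 17.9 and 16.2 CPM in NKG2D+ and 17.6, 16.3 and 14.0 CPM in NKG2D- libraries. Ppp1r3f stood at 23.3, 11.7 and 11.6 CPM in NKG2D+ and 5.92, 7.98 and 5.40 CPM in NKG2D- libraries. The part of reads from any overlapping gene in the Foxp3 values was not tested.

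Helios RNA varied more between NKG2D+ libraries than any other of the 8. Ikzf2 stood at 12.8, 2.47 and 4.70 CPM in NKG2D+ libraries, against 12.6, 18.5 and 16.3 CPM in NKG2D- libraries. NKG2D+ library 1 reached the level of NKG2D- library 1, while the other NKG2D+ libraries were lower than every NKG2D- library. The highest NKG2D+ library held 5.20 times the lowest, against 1.46 times among NKG2D- libraries. The log2 fold change was -1.25 (SE 0.56, 95% interval -2.57 to 0.07) with an adjusted p of 0.260 by edgeR. Without NKG2D+ library 1 it was -2.15 with an adjusted p of 0.0166, so this 1 library decides the call.

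Eos RNA overlapped between the populations. Ikzf4 stood at 3.59, 2.45 and 6.76 CPM in NKG2D+ libraries, against 2.37, 2.96 and 2.50 CPM in NKG2D- libraries. NKG2D+ libraries 1 and 3 lay above every NKG2D- library, and NKG2D+ library 2 lay within their range. NKG2D+ over NKG2D-, Ikzf4 had a log2 fold change of 0.71 (SE 0.37, 95% interval -0.16 to 1.58, edgeR adjusted p = 0.328). Without NKG2D+ library 3, the highest, it was 0.21 (adjusted p = 0.746), and without NKG2D+ library 2, the lowest of its population, 0.99 (adjusted p = 0.0813). Of the other Ikaros family genes, Ikzf1, Ikzf3 and Ikzf5, 0 of 3 passed by edgeR, with 1 at an unadjusted p under 0.05, 1 called by DESeq2 and 0 by limma-voom. Their median log2 fold change was 0.05, against -0.01 over all genes tested. Ikzf3, which encodes Aiolos, had the smallest p, at 486, 373 and 436 CPM in NKG2D+ libraries, against 318, 287 and 304 CPM in NKG2D- libraries (log2 fold change 0.51, SE 0.11, edgeR adjusted p = 0.0661). Its adjusted p was 0.0459 with raw library sizes, 0.0398 without NKG2D+ library 1, 0.00978 without NKG2D+ library 2 and 0.00139 by DESeq2. Over all genes tested, 424 of 13156 rose by edgeR without NKG2D+ library 1, and 904 of 13178 without NKG2D+ library 2. Ikzf3 did not pass with same-numbered libraries as pairs (edgeR adjusted p = 0.0695) or by limma-voom (adjusted p = 0.0966). Nor did it without NKG2D+ library 3 or any 1 of the NKG2D- libraries (edgeR adjusted p = 0.186 to 0.271).

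**Figure D1:**
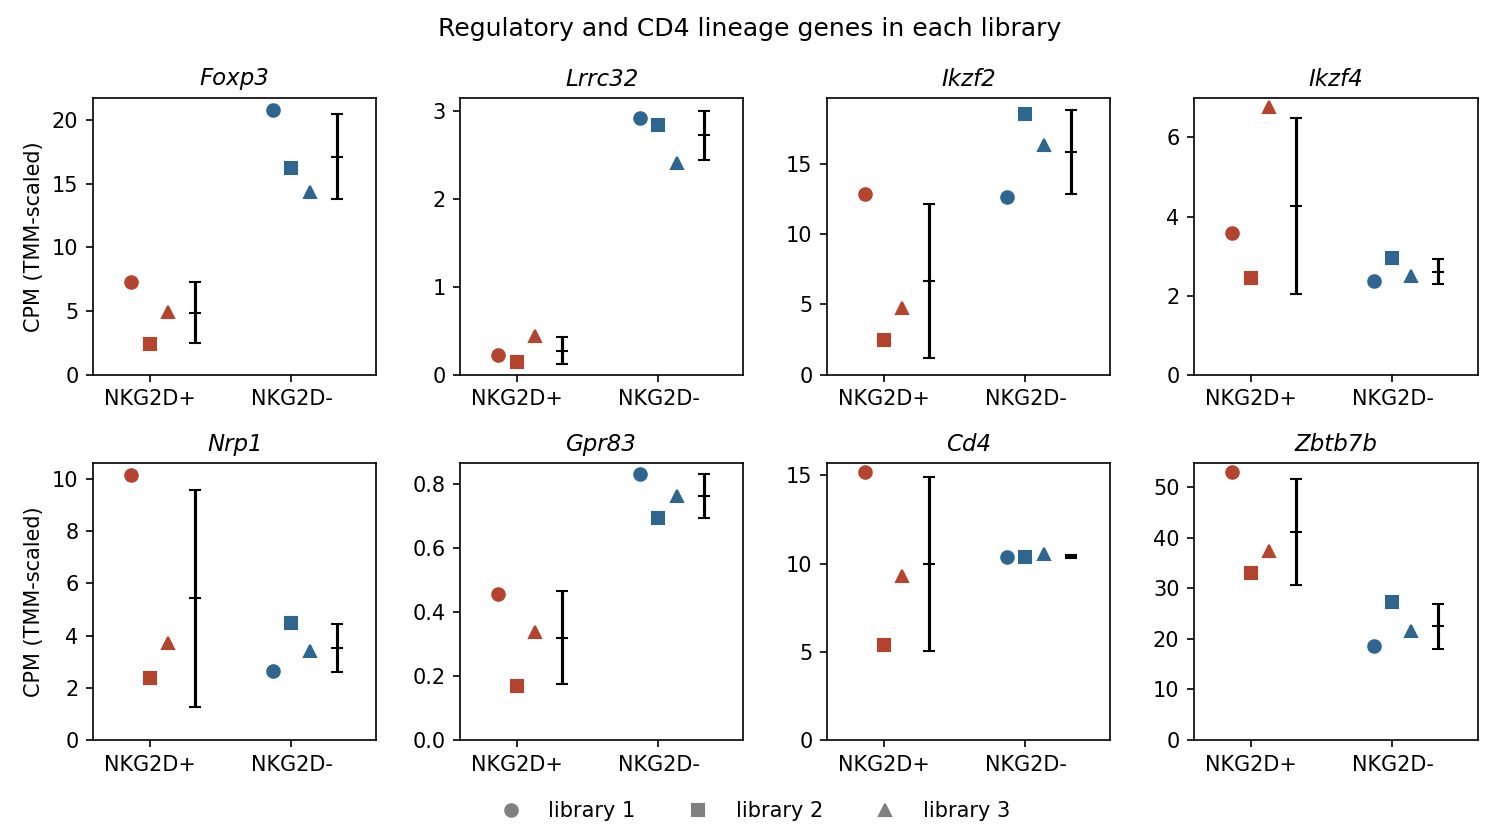
Level in CPM (scaled by TMM) of the 8 genes in each of the 3 NKG2D+ and 3 NKG2D- libraries, 1 point per library, with the mean and SD of each population as a bar beside its points. Foxp3, Lrrc32 and Gpr83 are lower in all NKG2D+ libraries, Zbtb7b is higher in all of them, and the other 4 genes overlap.

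Of the surface genes, Lrrc32 had the widest separation. It stood at 0.228, 0.145 and 0.440 CPM in NKG2D+ libraries, against 2.92, 2.84 and 2.40 CPM in NKG2D- libraries. The lowest NKG2D- library was well above the highest NKG2D+ library. The NKG2D+ mean was 0.0997 times the NKG2D- mean (log2 fold change -3.32, SE 0.41, a description). NKG2D+ values rest on 15, 13 and 34 reads, for which exact Poisson 95% intervals are 8.40 to 24.7, 6.92 to 22.2 and 23.5 to 47.5 reads. NKG2D- libraries had 116, 168 and 154 reads. These intervals cover counting error only.

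Gpr83 was also low in both populations. It stood at 0.456, 0.168 and 0.337 CPM in NKG2D+ libraries, against 0.831, 0.693 and 0.764 CPM in NKG2D- libraries. Behind these were 30, 15 and 26 reads in NKG2D+ libraries and 33, 41 and 49 reads in NKG2D- libraries. The groups did not overlap. The log2 fold change was -1.26 (SE 0.39, 95% interval -2.18 to -0.34), and the edgeR adjusted p was 0.135, so it did not pass.

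Nrp1 stood at 10.2, 2.39 and 3.72 CPM in NKG2D+ libraries, against 2.64, 4.48 and 3.40 CPM in NKG2D- libraries. NKG2D+ library 1 was far above the rest, and the other NKG2D+ libraries lay below or within the NKG2D- range. The summed B-cell and myeloid markers were also highest in NKG2D+ library 1, and their part in this value was not tested. The log2 fold change was 0.62 (SE 0.53, 95% interval -0.64 to 1.88, edgeR adjusted p = 0.560), and without NKG2D+ library 1 its sign turned, at -0.21, while without NKG2D+ library 2 it was 0.98.

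**Figure D2:**
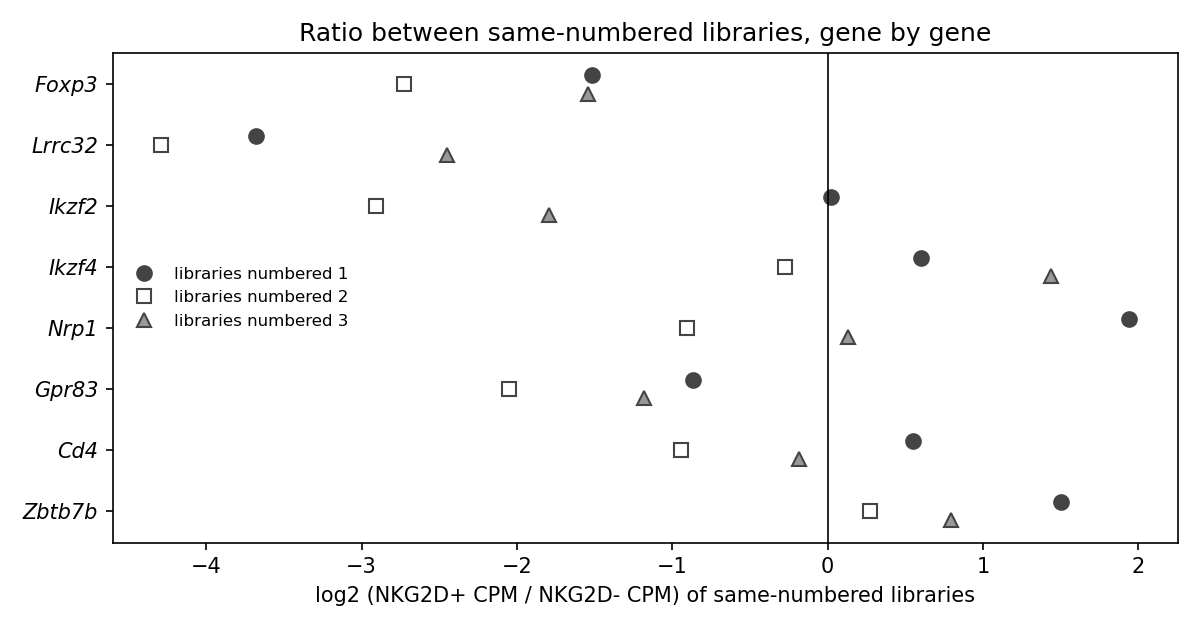
Log2 ratio of the NKG2D+ to the NKG2D- CPM of same-numbered libraries for each gene, 1 symbol per pair, with 0 meaning equal CPM. The libraries numbered 2 give the lowest of the 3 ratios for every gene, and Lrrc32 runs from -4.29 to -2.45 while Zbtb7b runs from 0.27 to 1.51.

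The CD4 co-receptor gene was at one level in NKG2D- cells and scattered in NKG2D+ cells. Cd4 stood at 15.2, 5.38 and 9.29 CPM in NKG2D+ libraries, against 10.4, 10.4 and 10.5 CPM in NKG2D- libraries. The NKG2D- libraries lay inside the NKG2D+ range. For Cd4 the log2 fold change was -0.07 (SE 0.34, 95% interval -0.87 to 0.73, edgeR adjusted p = 0.932), and its sign turned with raw library sizes (0.0221) and without NKG2D+ library 2 (0.23). Without NKG2D+ library 1 it was -0.51. Cd40lg, a surface ligand of helper T cells and the marker listed with Cd4, stood at 47.7, 3.57 and 6.90 CPM in NKG2D+ libraries, against 2.09, 1.93 and 1.36 CPM in NKG2D- libraries. Its edgeR adjusted p was 0.124, and NKG2D+ library 1 was far the highest for it, as it was for Cd4.

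ThPOK RNA lay higher in all NKG2D+ libraries but did not pass the test. Zbtb7b stood at 53.0, 33.0 and 37.4 CPM in NKG2D+ libraries, against 18.7, 27.4 and 21.5 CPM in NKG2D- libraries. The nearest libraries, NKG2D+ library 2 and NKG2D- library 2, carry the same number. The log2 fold change was 0.87 (SE 0.21, 95% interval 0.37 to 1.37), positive in 3 of 3 same-numbered pairs, and the edgeR adjusted p was 0.0870, above the threshold. By edgeR the adjusted p was 0.0336 without NKG2D+ library 2, with a log2 fold change of 1.00, and by DESeq2 it was 0.00193. Over all genes tested, 904 of 13178 rose by edgeR without NKG2D+ library 2. Zbtb7b did not pass with same-numbered libraries as pairs (edgeR adjusted p = 0.148) or by limma-voom (adjusted p = 0.136). Nor did it pass without NKG2D+ library 3 or any 1 of the NKG2D- libraries, where edgeR adjusted p-values ran from 0.151 to 0.301. NKG2D+ library 1 was the highest for Zbtb7b, as it was for Cd40lg, Cd8a and the summed B-cell markers. Without this library the log2 fold change of Zbtb7b was 0.64. The part of other cells in the Zbtb7b values was not tested. Zbtb7b shares 116 exon bases with an antisense gene, Gm15417, in GENCODE M21.

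Per kilobase of annotated exon (GENCODE M21, GRCm38, since no source used here names the annotation behind the counts), Zbtb7b had the highest mean level of the 8 in NKG2D+ cells, at 7.36 ± 1.88 CPM per kb (SD, n = 3). Cd4 followed at 2.47 ± 1.22, Foxp3 at 1.07 ± 0.527, Ikzf4 at 0.712 ± 0.373, Ikzf2 at 0.574 ± 0.470 and Nrp1 at 0.554 ± 0.425 CPM per kb. Gpr83 at 0.0628 ± 0.0285 and Lrrc32 at 0.0579 ± 0.0325 CPM per kb came last. In that order only Zbtb7b and Cd4, and Nrp1 and Gpr83, were neighbours whose libraries did not overlap. In NKG2D- cells Zbtb7b stood at 4.03 ± 0.792 and Foxp3 at 3.75 ± 0.726 CPM per kb, with overlapping libraries, then Cd4 at 2.58 ± 0.0243, Ikzf2 at 1.36 ± 0.255 and Lrrc32 at 0.580 ± 0.0597. Ikzf4 at 0.435 ± 0.0518, Nrp1 at 0.359 ± 0.0943 and Gpr83 at 0.150 ± 0.0136 CPM per kb followed, and of these later neighbours only Ikzf4 and Nrp1 overlapped. Lrrc32 had the lowest mean of the 8 in NKG2D+ cells, while Ikzf4, Nrp1 and Gpr83 lay below it in NKG2D- cells. Since Lrrc32 was picked for its lower values in NKG2D+ cells, this change of rank is a description. Cd8a stood at 390 ± 123 CPM per kb in NKG2D+ and 333 ± 5.61 CPM per kb in NKG2D- cells, far above Cd4 in both.

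Ratios of read counts within a library do not depend on how libraries are scaled, and a gene's length cancels when 1 ratio is compared between libraries. The ratio of Foxp3 to Cd4 reads was 0.479, 0.454 and 0.531 in NKG2D+ libraries, against 2.01, 1.57 and 1.37 in NKG2D- libraries. It was nearly constant among NKG2D+ libraries, although Foxp3 CPM there differed 2.97 times between the highest and the lowest, and Cd4 CPM 2.82 times. Zbtb7b to Cd4 was 3.49, 6.13 and 4.02 in NKG2D+ libraries, against 1.803, 2.64 and 2.04 in NKG2D- libraries. Cd4 to Cd8a was 0.00785, 0.00475 and 0.00783 in NKG2D+ libraries, against 0.00872, 0.00850 and 0.00859 in NKG2D- libraries. This ratio did not overlap, although Cd4 CPM and Cd8a CPM each did, and it was not tested.

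Lrrc32 to Foxp3 reads stood at 0.0314, 0.0594 and 0.0892 in NKG2D+ libraries, against 0.140, 0.175 and 0.167 in NKG2D- libraries, so Lrrc32 was lower in NKG2D+ cells even relative to Foxp3. Nrp1 to Foxp3 stood at 1.40, 0.977 and 0.753 in NKG2D+ libraries, against 0.127, 0.276 and 0.236 in NKG2D- libraries. Ikzf2 to Foxp3 did not separate the populations, at 1.77, 1.01 and 0.953 in NKG2D+ against 0.607, 1.14 and 1.13 in NKG2D- libraries. All but the Zbtb7b to Cd4 and Cd4 to Cd8a ratios hold Foxp3, which was picked by value, so they are descriptions.

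**Figure D3:**
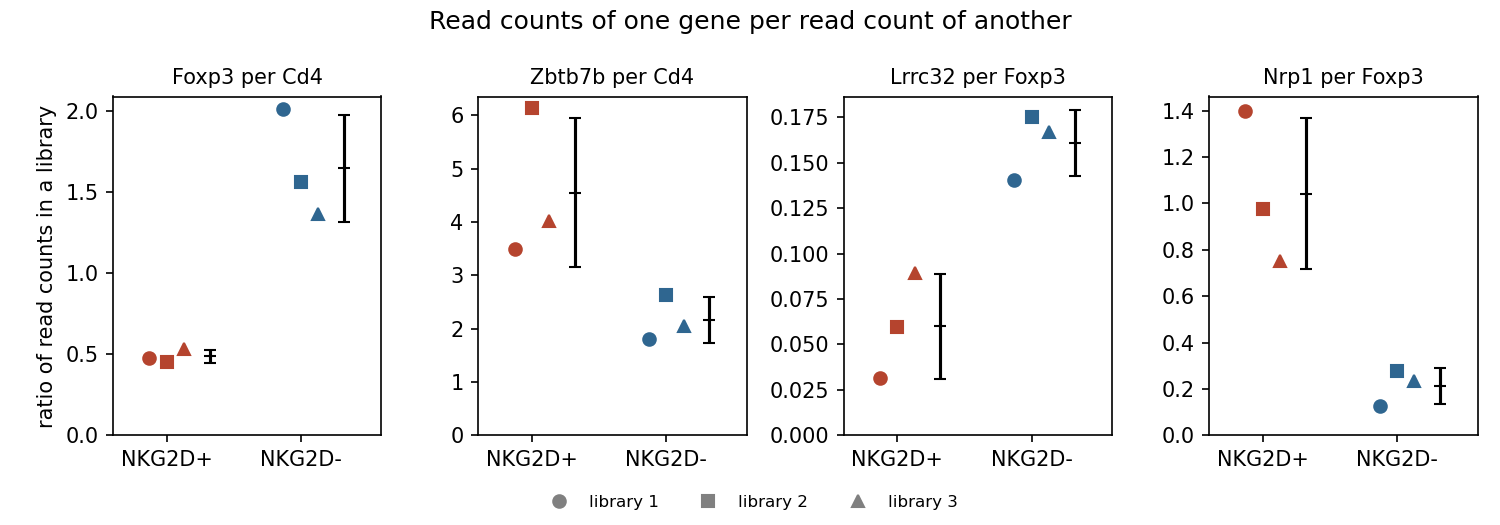
Ratio of the read counts of 2 genes within each library, 1 point per library, with the mean and SD of each population as a bar beside its points. Foxp3 per Cd4 is 0.454 to 0.531 in NKG2D+ and 1.37 to 2.01 in NKG2D- libraries, Lrrc32 per Foxp3 is lower in NKG2D+ libraries, and Zbtb7b per Cd4 and Nrp1 per Foxp3 are higher.

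Likeness of pattern was measured as the root mean square difference between log2 CPM profiles over the 6 libraries, each centred on its own mean. These libraries share 3 mice, and the prior count pulls the profiles of rarely read genes together, so the distances are descriptions. Gpr83 was the gene nearest to Foxp3 among all genes tested, at 0.36, followed by Mical3 and Lif at 0.37, against a median distance of 1.08 over all genes. Ikzf2 had Gpr83 (0.44), Arhgap29 and Foxp3 (0.45 each) as its nearest genes. Foxp3, Ikzf2 and Gpr83 lay closer to each other than to the remaining members. Because Foxp3 was picked for lower values in NKG2D+ cells, genes lower there by a similar amount lie near it. Its closeness to Gpr83 and Ikzf2 is therefore a description too.

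For Lrrc32 the nearest genes were Dntt (0.49), which encodes the template-free DNA polymerase of developing lymphocytes, Trnp1 (0.52) and the sodium pump subunit gene Atp1b1 (0.60), against a median of 1.71. Gpr83 was nearest to Lif (0.11), Dst (0.16) and Arhgap29 (0.21), against a median of 0.76. Nrp1 was nearest to Epcam (0.14), an epithelial adhesion gene, Scn2a1 (0.17) and Nfam1 (0.19), against a median of 0.71. Ikzf4 was nearest to Ston2 (0.16), Cdc42bpa (0.17) and AA467197 (0.20), against a median of 0.56. The nearest genes to Cd4 were Dagla (0.10), Ogdhl and Ramp1 (0.15 each), against a median of 0.49, and those to Zbtb7b were Dram1 (0.07), Arhgef11 and AI646023 (0.09 each), against a median of 0.54.

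Among other genes known from regulatory T cells, those that passed were higher in NKG2D+ cells. Of 23 surface and effector genes, 21 were tested, and by edgeR 2 rose and 0 fell in NKG2D+ cells, with 10 higher and 2 lower at an unadjusted p under 0.05. DESeq2 called 7 higher and 2 lower, and limma-voom 1 higher and 0 lower. The count of genes that rose was 5 without NKG2D+ library 1, 9 without NKG2D+ library 2, and 0 without NKG2D+ library 3 or any 1 of the NKG2D- libraries. Over all genes tested the count moved likewise, from 214 of 12951 with all libraries to 424 of 13156 without NKG2D+ library 1. It was 904 of 13178 without NKG2D+ library 2, 11 without NKG2D+ library 3, and 4 to 15 without 1 of the NKG2D- libraries. Positive log2 fold changes were seen for 15 of the 21, and the median of the 21 was 0.67, against -0.01 over all genes tested. The list, like the others here, was chosen with earlier results of these data known, so its counts and median are descriptions. Fgl2, which encodes a secreted fibrinogen-like protein, stood at 339, 140 and 237 CPM in NKG2D+ libraries, against 15.1, 22.7 and 26.7 CPM in NKG2D- libraries (log2 fold change 3.47, SE 0.37, edgeR adjusted p = 0.0153). Socs2, an inhibitor of cytokine signalling, stood at 29.3, 10.98 and 21.9 CPM in NKG2D+ libraries, against 4.46, 4.58 and 3.96 CPM in NKG2D- libraries (log2 fold change 2.26, SE 0.34, edgeR adjusted p = 0.0339). With same-numbered libraries as pairs the adjusted p was 0.0652 for Fgl2 and 0.0806 for Socs2, and 1 gene of the list passed.

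Il2ra and Ctla4, a chain of the IL-2 receptor and an inhibitory receptor that both mark regulatory T cells, did not pass, and are named outside the rule for named genes after their values were seen. Il2ra stood at 39.5, 10.4 and 32.8 CPM in NKG2D+ libraries, against 11.1, 13.7 and 14.1 CPM in NKG2D- libraries. Ctla4 levels were 12.0, 4.92 and 11.8 CPM in NKG2D+ libraries, against 12.6, 12.3 and 10.8 CPM in NKG2D- libraries. Both overlapped between the populations, and in both NKG2D+ library 2 was the lowest of the 6. Fgl2 and Socs2 are also expressed by T cells that lack Foxp3.

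**Figure D4:**
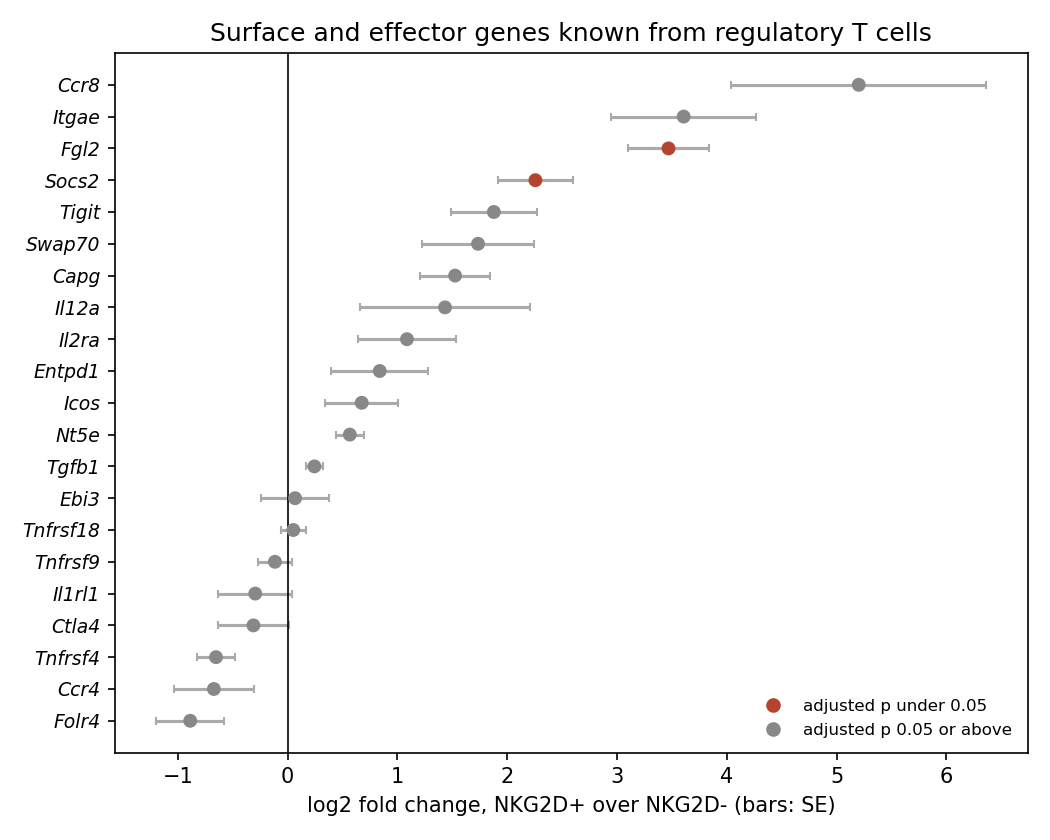
Log2 fold change (NKG2D+ over NKG2D-) of the 21 tested surface and effector genes known from regulatory T cells, with bars for the SE; colour marks an adjusted p under 0.05 by edgeR. Of the 21, 15 lie above 0, and Fgl2 and Socs2 alone passed the test. The list was chosen with earlier results of these data known.

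Of 26 partners and upstream regulators of Foxp3, 0 passed by edgeR, with 2 higher and 3 lower at an unadjusted p under 0.05, 1 higher and 2 lower by DESeq2 and 0 by limma-voom. Their median log2 fold change was -0.05. Ezh2, a histone methyltransferase that acts with Foxp3 in activated regulatory T cells, had the smallest p, at 37.5, 26.6 and 30.7 CPM in NKG2D+ against 20.6, 19.8 and 20.0 CPM in NKG2D- libraries (log2 fold change 0.65, SE 0.13, edgeR adjusted p = 0.0596). It passed with raw library sizes (adjusted p = 0.0459), without the filter on low counts (0.0439), without NKG2D+ library 1 (0.0296) or 2 (0.0105) and by DESeq2 (0.000701). Ezh2 did not pass with same-numbered libraries as pairs (edgeR adjusted p = 0.0863) or by limma-voom (adjusted p = 0.112). Nor did it without NKG2D+ library 3 or any 1 of the NKG2D- libraries (edgeR adjusted p = 0.170 to 0.261). Of 7 genes that Foxp3 represses in regulatory T cells, 6 were tested and 0 passed by edgeR, with a median of 0.22, 2 higher and 1 lower at an unadjusted p under 0.05, 2 higher by DESeq2 and 0 by limma-voom. Ifng, the interferon gamma gene, had the smallest p, at 127, 31.6 and 42.9 CPM in NKG2D+ libraries, against 17.4, 12.8 and 8.81 CPM in NKG2D- libraries (log2 fold change 2.37, SE 0.56, edgeR adjusted p = 0.0851). Without NKG2D+ library 1 its log2 fold change was 1.53 with an adjusted p of 0.0489, without NKG2D+ library 2 its adjusted p was 0.0372, and by DESeq2 0.00687. With same-numbered libraries as pairs the edgeR adjusted p of Ifng was 0.0806, and by limma-voom it was 0.155. Without NKG2D+ library 3 or any 1 of the NKG2D- libraries it ran from 0.163 to 0.296 by edgeR.

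Among 18 other CD4 lineage and helper genes, 12 were tested, 0 rose and 1 fell by edgeR, with a median log2 fold change of 0.72. At an unadjusted p under 0.05 there were 6 higher and 3 lower, DESeq2 called 3 higher and 2 lower, and limma-voom 0 and 1. Il13, counted among the higher genes, stood at 0.852, 0.257 and 0.194 CPM in NKG2D+ libraries, against 0, 0 and 0.0468 CPM in NKG2D- libraries. It passed the filter on low counts only through its NKG2D+ values, so its place in these counts and in the median is a description. By edgeR, leaving out NKG2D+ library 1 gave 2 genes of the list that rose, and leaving out NKG2D+ library 2 gave 5. Over all genes tested these were 424 of 13156 and 904 of 13178. Cxcr5, the follicular homing receptor gene, fell to 43.4, 44.0 and 46.0 CPM in NKG2D+ libraries, against 67.1, 64.5 and 79.2 CPM in NKG2D- libraries (log2 fold change -0.66, SE 0.09, edgeR adjusted p = 0.0266, and 0.0518 with same-numbered libraries as pairs). Of 7 CD8 lineage genes 0 passed by edgeR, DESeq2 or limma-voom, with 1 at an unadjusted p under 0.05 and a median of -0.01. Tbx21, which encodes T-bet, had the smallest p there, at 154, 157 and 154 CPM in NKG2D+ libraries, against 139, 116 and 130 CPM in NKG2D- libraries (edgeR adjusted p = 0.126). Of 6 relatives of Zbtb7b in the POK family, 4 were tested and 0 passed by edgeR, with a median of 0.21, 2 at an unadjusted p under 0.05, 1 by DESeq2 and 0 by limma-voom. Zbtb32 had the smallest p, at 9.08, 8.52 and 6.46 CPM in NKG2D+ libraries, against 4.58, 6.46 and 4.04 CPM in NKG2D- libraries (edgeR adjusted p = 0.155, and 0.0443 by DESeq2).

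Genes on either side of GARP and neuropilin-1 were tested as well. Of 14 genes of latent TGF-beta handling and its receptors, 11 were tested and 0 passed by edgeR, with a median log2 fold change of 0.32. At an unadjusted p under 0.05 there were 4 higher and 1 lower, DESeq2 called 2 higher, and limma-voom 0. Furin, the protease that cleaves the TGF-beta precursor, had the smallest p, at 130, 139 and 132 CPM in NKG2D+ against 101, 114 and 106 CPM in NKG2D- libraries (log2 fold change 0.32, SE 0.07, edgeR adjusted p = 0.0721). It passed with raw library sizes (adjusted p = 0.0479), without NKG2D+ library 1 (0.0441) and by DESeq2 (0.00747). Furin did not pass with same-numbered libraries as pairs (edgeR adjusted p = 0.0770), by limma-voom (adjusted p = 0.110) or without NKG2D+ library 2 (edgeR adjusted p = 0.0686). Nor did it without NKG2D+ library 3 or any 1 of the NKG2D- libraries (edgeR adjusted p = 0.155 to 0.296). Of 22 neuropilin ligands and co-receptors, 9 were tested, 2 rose and 0 fell by edgeR, with a median of 0.30. Over all genes tested, 1.65% rose and 0.363% fell. At an unadjusted p under 0.05 by edgeR there were 2 higher and 0 lower in this list, and with same-numbered libraries as pairs 0 rose.

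Plxnd1, a plexin that signals for class 3 semaphorins, stood at 44.2, 12.1 and 26.6 CPM in NKG2D+ libraries, against 4.38, 4.75 and 3.20 CPM in NKG2D- libraries (log2 fold change 2.75, SE 0.46, edgeR adjusted p = 0.0424). Sema4a, a ligand of neuropilin-1 in mice, stood at 819, 780 and 830 CPM in NKG2D+ libraries, against 502, 611 and 597 CPM in NKG2D- libraries (log2 fold change 0.51, SE 0.09, edgeR adjusted p = 0.0498). With same-numbered libraries as pairs the adjusted p was 0.0931 for Plxnd1 and 0.0945 for Sema4a. The calls of Fgl2, Socs2, Cxcr5, Plxnd1 and Sema4a each held without NKG2D+ library 1 or 2. Each was lost without NKG2D+ library 3 and without any 1 of the NKG2D- libraries, where adjusted p-values ran from 0.0771 for Fgl2 to 0.218 for Plxnd1. Their log2 fold changes kept their signs in all of these. With limma-voom the calls of Socs2 (adjusted p = 0.124), Plxnd1 (0.143) and Sema4a (0.0780) were lost, with RLE size factors that of Sema4a (0.0507), and without the filter on low counts that of Plxnd1 (0.0879).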

How the data were processed

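Each deposited file holds read counts per gene symbol for 1 library, left unnormalised by the authors: 23284 genes, and 5 summary counts that were left out of every step here. Reads outside genes made up 14.0% to 15.9%, reads in several genes 0.715% to 0.836%, and reads aligned to several places 19.7% to 26.2%. Per the submitters' processing notes, the tools included CASAVA 1.8.2 and TopHat2 2.0.4 and the build was mm9. No source used here names the counting program, its annotation or its strand setting.

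Counts were tested in R 4.3.3 with edgeR 4.0.16 (quasi-likelihood F-test, TMM, filterByExpr at a minimum count of 10, robust fits, group only) on all 6 libraries, adjusted by Benjamini-Hochberg over 12951 genes at 0.05. DESeq2 1.42.0 and limma-voom (limma 3.58.1) were alternatives. CPM use TMM-scaled library sizes, and log2 CPM a prior count of 2. The fit was first tested on simulated data with known changes.

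The series description says that the cells came from 3 mice. Deviations from group means correlated at r = 0.21, 0.16 and 0.28 between same-numbered libraries across genes, which are not independent, so the numbers were taken as pairs for the alternative with a replicate block. No library was a copy of another (chi-square per degree of freedom 40.7 to 235). The genes and lists were chosen with earlier results of these data known. Counts of calls per list under the alternatives were added after seeing the data. Named list genes are up to 2 called genes per direction by smallest p, or else the gene with the smallest p as a value, and the 3 genes nearest in pattern to each member. Izumo1r and Nrros were matched by older symbols.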

Additional observations from a re-analysis of the deposited data

How the results depend on the processing

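The replicate block left 57 genes higher and 11 lower in place of 214 and 47. DESeq2 called 1013 higher and 405 lower, and limma-voom 60 and 23. Leaving out 1 library gave 4 to 904 higher and 4 to 408 lower, and leaving out both libraries numbered 3 gave 0 and 0 by edgeR, with 971 genes at an unadjusted p under 0.05. Of the 6 members not picked by value, DESeq2 called 1, and leaving out 1 library gave 0 to 1. The block changed no call among the 6. The log2 fold change of Cd4 turned with raw library sizes (0.0221) and ran from -0.51 to 0.23 when 1 library was left out, turning without NKG2D+ replicate 2. That of Nrp1 ran from -0.21 to 0.98, turning without NKG2D+ replicate 1. Ikzf2, Ikzf4, Gpr83 and Zbtb7b kept their sign in all 14 alternatives, and Ikzf4 ran from 0.18 to 0.99. Lrrc32 ran from -3.95, without both libraries numbered 3, to -3.002, without NKG2D+ replicate 2, and Gpr83 from -1.60 to -0.94. The causes were not tested. Lrrc32 and Gpr83 rest on few reads, while Ikzf2 and Nrp1 have the widest intervals of the 8. Scaling members to summed Cd3d, Cd3e, Cd3g and Cd247 counts turned no sign.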
